A study of Mus musculus with 18 samples.

Results

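In common lymphoid progenitors (CLPs) labelled as Trim33 knockout, transcripts that cells make for mitosis were lower than in wild type (WT) CLPs. Most transcripts of the DNA replication machinery did not pass the test. The genes described are 49 members of the cell cycle and DNA replication programme, found by their symbols among the 18169 genes that the 3 expression tables of the series share. They comprise 23 S-phase genes (replication factors, nucleotide synthesis enzymes and regulators of S-phase entry), 19 genes of G2 and mitosis, and 7 genes of G1 (D-type cyclins, their kinases and their inhibitors). The members were chosen by their known roles, with earlier results of these data known. All 49 were above 0 in every library, between 1.25 and 555 FPKM, and all 49 passed the filter on low values in every comparison.

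A dividing cell commits in G1, when D-type cyclins with CDK4 or CDK6 phosphorylate the retinoblastoma protein and free E2F transcription factors, a step that the inhibitors of the INK4 and CIP/KIP families restrain. E2F then switches on the genes of DNA replication, among them the MCM helicase that opens the DNA, the primase and polymerase that start the strands, and PCNA, the clamp that holds the polymerase. The genes of mitosis follow in G2 under B-MYB and FOXM1. Progenitors of the bone marrow divide often, so a bulk library averages over cells in all phases. A lower level in such a library may come from fewer cells in a phase or from less RNA per cell, and these cannot be told apart.

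The study asked what loss of TRIM33, a chromatin-bound regulator of transcription, does to the progenitors of dendritic cells (DCs). Multipotent progenitors (MPPs), CD115- common dendritic cell progenitors (CDPs) and CLPs were sorted from the bone marrow of C57BL/6 mice aged 6 to 8 weeks. The WT libraries came from Trim33 fl/fl mice and the libraries labelled Trim33-/- (KO) from Trim33 fl/fl Cre-ERT2 mice, in which tamoxifen activates the Cre recombinase in all tissues. All mice had been given tamoxifen. Each of the 6 groups had 3 libraries, 18 in all. Because the deletion was systemic, a KO progenitor also lay in a marrow of KO cells.

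Depth was similar in all libraries. The spacing of the FPKM of weakly expressed genes placed it at 19.3 to 21.3 M mapped reads. The deleted gene was measured only as a whole-gene level. Trim33 stood at 10.4, 10.1 and 8.78 FPKM in WT MPPs and at 9.71, 11.7 and 4.80 FPKM in KO MPPs. In CD115- CDPs it stood at 14.3, 15.2 and 8.27 FPKM in WT and at 9.64, 8.28 and 4.03 FPKM in KO libraries. In CLPs it stood at 12.4, 7.01 and 8.86 FPKM in WT and at 7.52, 5.6 and 7.66 FPKM in KO libraries. The KO and WT ranges overlapped in all 3 populations. At each replicate number the KO library was lower in CD115- CDPs and in CLPs. Without a block Trim33 passed in no population (limma adjusted p = 0.528 in CD115- CDPs, 0.255 in CLPs and 0.630 in MPPs). With the replicate number as a block it fell in CD115- CDPs (log2 fold change -0.74, limma adjusted p = 0.0258) and had an estimate of -0.37 in CLPs (adjusted p = 0.0727). In MPPs the estimate was -0.22 (adjusted p = 0.494 with the block). Replicate 3 of the CD115- CDPs, in both genotypes, and replicate 3 of the KO MPPs stood apart from the others of their group. Replicate 3 of the WT CD115- CDPs had 137 FPKM of Csf1r, which encodes CD115, the receptor this gate excludes, against 57.0 and 39.1 FPKM in the others, and 1686 FPKM of the granulocyte gene Mpo against 352 and 311 FPKM. Replicate 3 of the KO CD115- CDPs had 37.2 FPKM of Csf1r against 11.4 and 9.24 FPKM, and 2117 FPKM of Mpo against 332 and 248 FPKM. Nr4a1 stood at 69.7 FPKM in the WT and 119.8 FPKM in the KO library of this number, against 1528 to 1928 FPKM in the other CD115- CDPs. Replicate 3 of the KO MPPs had 246 FPKM of Nr4a1, an immediate early gene, against 1615 and 1760 FPKM in the other KO MPPs. The WT MPPs had 515 to 875 FPKM of Nr4a1. Immediate early genes did not all go this way. Fos stood at 1188 FPKM in replicate 3 of the KO MPPs against 344 and 207 FPKM in the other KO MPPs. In the WT CD115- CDPs Fos stood at 1657 FPKM in replicate 3 against 415 and 162 FPKM in the others. Results that rest on these libraries are given with and without them.

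The promoters of the members carry different short motifs by phase. Promoter windows from RefSeq (build GRCm38.p6), 300 bases each and mostly upstream of the start of a gene, were found for 20 of the 23 S-phase members, 15 of the 19 mitotic members and 5 of the 7 G1 members. An E2F-like motif, TTTCGCGC or TTTGGCGC on either strand, was present in 7 of the 20 S-phase windows and in 1 of the 15 mitotic windows, that of Cdk1, against 0.833% of the windows of all 27025 genes. A motif like the cell cycle homology region (CHR), TTTGAA or TTCGAA on either strand, was present in 12 of the 15 mitotic windows and 5 of the 20 S-phase windows, against 19.4% of all windows. The letters CCAAT, the core to which NF-Y binds, were present on either strand in 14 mitotic and 13 S-phase windows, against 37.9% of all. All 12 mitotic windows with a CHR-like motif also held CCAAT, a combination present in 7.7% of all windows. None of the 5 G1 windows held an E2F-like or a CHR-like motif. The lists of further genes of the same phases showed a like pattern, with a CHR-like motif in 33 of 45 mitotic and 6 of 34 S-phase windows and an E2F-like motif in 2 and 4. These counts describe letters in a window, not binding.

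Stretches of 170 bases, each ending 14 bases past the start of the gene, are shown for 5 mitotic members that carry CHR-like and CCAAT motifs, so that they can be read beside 3 S-phase members that carry E2F-like motifs. Capitals mark E2F-like, CHR-like and CCAAT motifs on either strand. In Mcm5 and Mcm6 the E2F-like letters of the opposite strands overlap and appear as 1 longer run.
Cdc20 (chr4:118437329-118437498, minus strand): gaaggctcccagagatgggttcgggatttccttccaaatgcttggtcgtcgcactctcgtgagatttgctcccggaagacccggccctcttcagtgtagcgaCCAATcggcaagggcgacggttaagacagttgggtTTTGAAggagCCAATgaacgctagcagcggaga
Ube2c (chr2:164769774-164769943, plus strand): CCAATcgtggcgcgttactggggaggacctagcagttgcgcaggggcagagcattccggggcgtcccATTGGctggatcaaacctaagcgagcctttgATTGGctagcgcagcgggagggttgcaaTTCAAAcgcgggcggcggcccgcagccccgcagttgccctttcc
Ccnb2 (chr9:70421540-70421709, minus strand): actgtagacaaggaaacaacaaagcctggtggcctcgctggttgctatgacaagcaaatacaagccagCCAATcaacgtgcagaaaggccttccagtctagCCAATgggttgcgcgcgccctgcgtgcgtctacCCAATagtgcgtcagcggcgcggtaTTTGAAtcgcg
Kif11 (chr19:37376227-37376396, plus strand): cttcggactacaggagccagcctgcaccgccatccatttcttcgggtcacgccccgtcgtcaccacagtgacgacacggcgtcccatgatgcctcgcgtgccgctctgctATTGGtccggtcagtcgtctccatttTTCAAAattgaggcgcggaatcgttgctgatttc
Cdk1 (chr10:69352898-69353067, minus strand): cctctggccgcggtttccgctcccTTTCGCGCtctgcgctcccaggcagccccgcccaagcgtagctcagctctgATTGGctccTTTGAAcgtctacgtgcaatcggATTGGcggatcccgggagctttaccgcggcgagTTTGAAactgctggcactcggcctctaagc
Mcm5 (chr8:75109354-75109523, plus strand): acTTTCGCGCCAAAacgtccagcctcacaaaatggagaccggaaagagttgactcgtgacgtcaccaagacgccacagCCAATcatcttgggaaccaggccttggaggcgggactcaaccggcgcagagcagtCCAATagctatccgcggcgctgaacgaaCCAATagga
Mcm6 (chr1:128359691-128359860, minus strand): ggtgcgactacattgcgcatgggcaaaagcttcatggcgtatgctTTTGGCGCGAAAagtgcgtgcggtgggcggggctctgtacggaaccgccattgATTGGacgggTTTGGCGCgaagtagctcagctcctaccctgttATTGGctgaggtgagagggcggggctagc
Pola1 (chrX:93632141-93632310, minus strand): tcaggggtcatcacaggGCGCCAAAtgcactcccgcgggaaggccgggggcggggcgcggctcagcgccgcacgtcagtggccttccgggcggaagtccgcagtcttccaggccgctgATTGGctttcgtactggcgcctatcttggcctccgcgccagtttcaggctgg

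In these stretches the CHR-like letters of Cdc20, Ube2c and Kif11 began at -18, -29 and -19 from the start, those of Cdk1 at -71 and -15, and those of Ccnb2 at 4, just inside the gene. A CCAAT motif lay upstream of each. Cdk1 alone among the 15 mitotic windows also carried an E2F-like motif. Of the 5 mitotic genes shown, Cdc20, Ube2c and Ccnb2 fell in KO CLPs and Kif11 and Cdk1 did not pass the test, as given below. None of the 3 S-phase genes shown passed it.

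**Figure D1:**
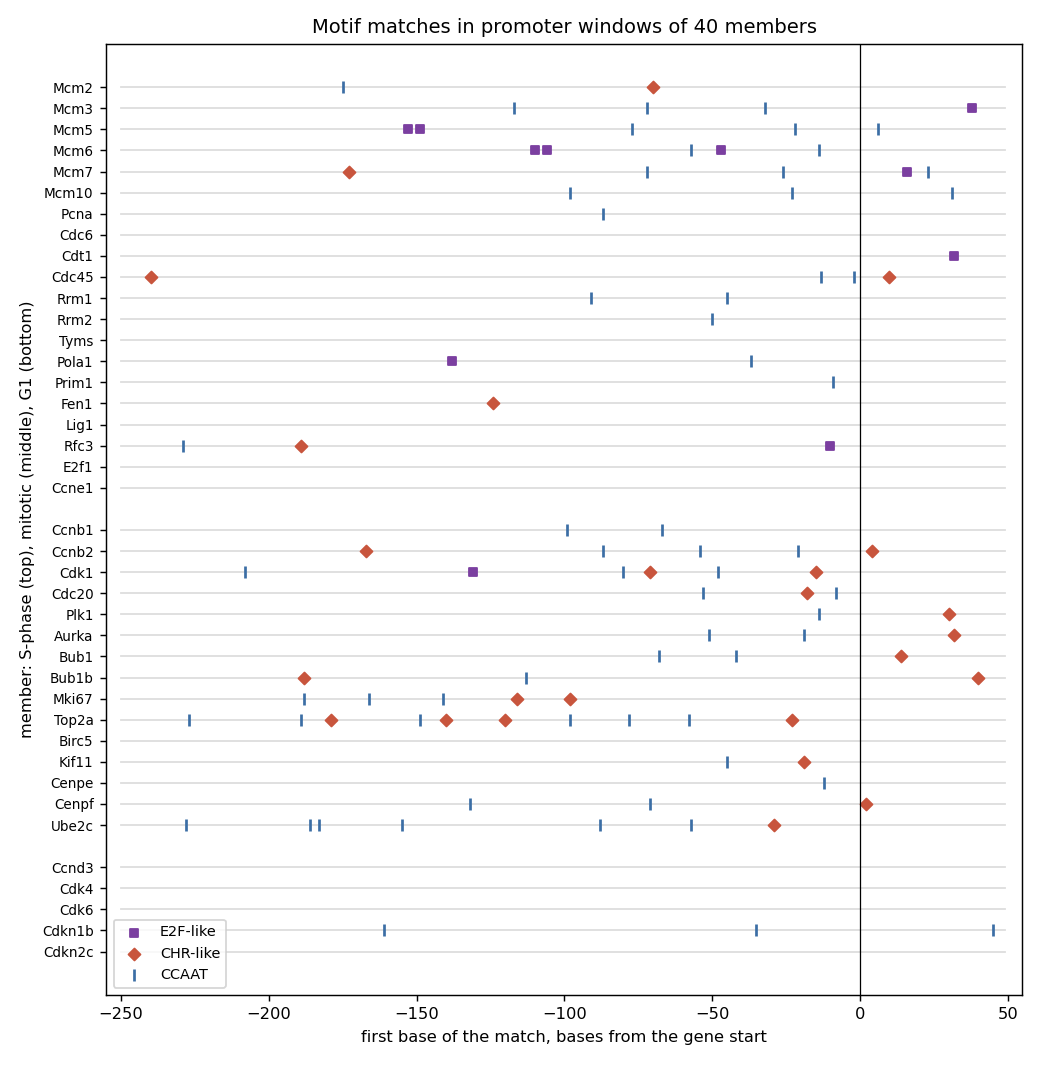
Positions of E2F-like (squares), CHR-like (diamonds) and CCAAT (bars) motifs in the promoter windows of the 40 members with a RefSeq window; the horizontal axis gives the first base of each match in bases from the gene start, and each row is a gene. CHR-like motifs lie mostly in the mitotic rows (12 of 15) and E2F-like motifs mostly in the S-phase rows (7 of 20).

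Averaged over its members, the S-phase programme varied little between the libraries and the mitotic programme varied much more. The mean log2(FPKM + 1) of the 23 S-phase members ranged over 0.58, from 5.43 in WT 2 to 6.01 in WT 3 of the CD115- CDPs. The mean of the 19 mitotic members ranged over 1.68, from 4.25 in KO 2 of the CD115- CDPs to 5.92 in KO 3 of the MPPs. Between its highest and its lowest library a mitotic member differed by a median of 3.51-fold, and an S-phase member by a median of 1.85-fold. KO 3 of the MPPs was the highest library for 11 of the 19 mitotic members, and CD115- CDP libraries were the lowest for 18 of them.

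**Figure D2:**
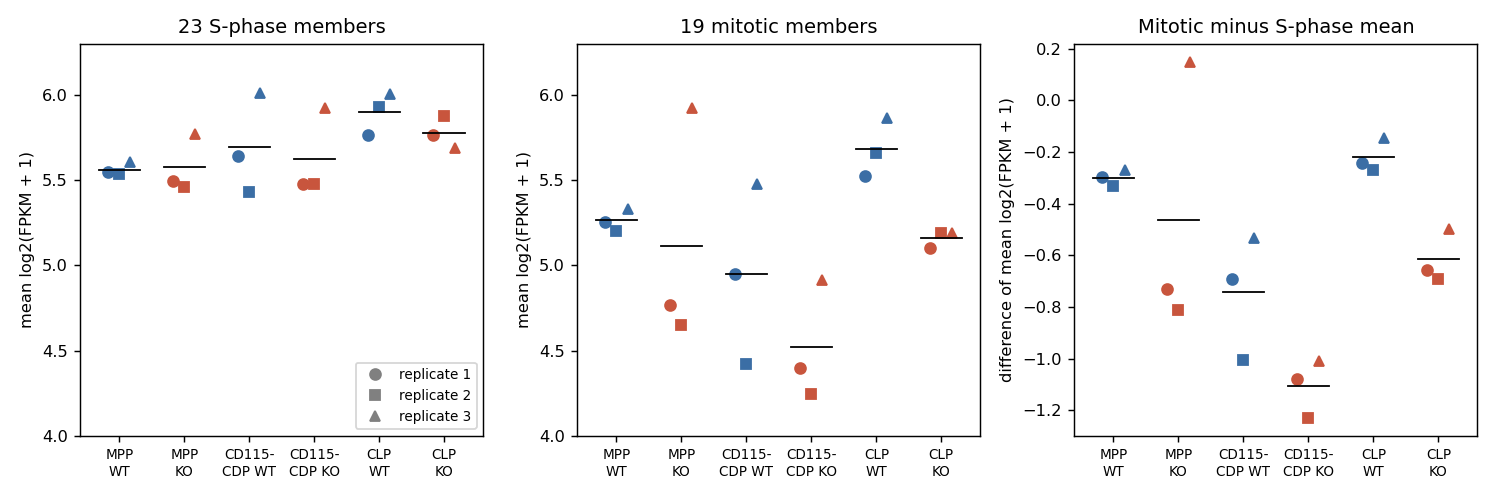
Mean log2(FPKM + 1) of the 23 S-phase members (left), of the 19 mitotic members (middle) and the difference of these means (right) in each of the 18 libraries; WT libraries are blue, KO libraries red, marker shapes give the replicate number and lines the mean of 3 libraries. The mitotic means of the KO CLPs (5.10 to 5.19) lie below all WT CLPs (5.53 to 5.86), while KO MPP replicate 3 (5.92) lies above every other library.

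Mitotic genes were lower in KO CLPs than in WT CLPs. The mitotic mean was 5.53, 5.66 and 5.86 in the WT CLPs and 5.10, 5.19 and 5.19 in the KO CLPs, and the groups did not overlap. Of the 19 mitotic members, 12 fell and 0 rose (limma adjusted p at most 0.05), where 8.92% of all 12339 tested genes fell. All 19 estimates were below 0, and their median log2 fold change was -0.54, where the median of all tested genes was 0.01. The WT and KO libraries did not overlap for 14 of the 19, all lower in KO, where 18.6% of all genes were lower without overlap. With the replicate number as a block, 15 mitotic members fell, where 12.5% of all tested genes fell. These counts depended on single libraries, with 4 members left without WT 3, 5 without KO 1, 6 without KO 2 or KO 3, 7 without WT 2 and 14 without WT 1, all lower in KO.

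The anaphase-promoting complex, the ubiquitin ligase that ends mitosis, was represented by its E2 enzyme Ube2c and its activator Cdc20. Ube2c, the mitotic member with the lowest estimate, stood at 129, 162 and 187 FPKM in the WT CLPs and at 87.4, 77.7 and 85.2 FPKM in the KO CLPs. Every KO library lay below every WT library, a log2 fold change of -0.91 (SE 0.14, limma adjusted p = 0.00349). Cdc20 stood at 68.3, 95.8 and 99.6 FPKM in WT and at 55.2, 58.3 and 52.9 FPKM in KO CLPs, and fell by 0.64 on the log2 scale (limma adjusted p = 0.0229).

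The mitotic cyclins and kinases moved in the same direction. Cyclin A2 (Ccna2), which acts from S phase into mitosis, fell by 0.60 and cyclin B2 (Ccnb2) fell by 0.71 on the log2 scale (limma adjusted p = 0.0221 and 0.00873). Ccnb2 stood at 68.0, 88.8 and 94.6 FPKM in WT and at 49.6, 50.4 and 51.4 FPKM in KO CLPs, so the KO libraries lay close together below all WT libraries. Cyclin B1 (Ccnb1) had an estimate of -0.39 (limma adjusted p = 0.183, and 0.0393 with the block), and its partner Cdk1, the kinase that drives entry into mitosis, one of -0.33 (limma adjusted p = 0.348, and 0.0812 with the block). The polo-like kinase Plk1 stood at 39.5, 54.8 and 48.97 FPKM in WT and at 28.1, 30.2 and 26.8 FPKM in KO CLPs, and fell by 0.72 on the log2 scale (SE 0.13, limma adjusted p = 0.00804). Aurora A (Aurka), the kinase of the spindle poles, fell by 0.72 and Aurora B (Aurkb), the kinase of the chromosomal passenger complex, fell by 0.54 (limma adjusted p = 0.0352 and 0.0214).

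Survivin (Birc5), which targets Aurora B to centromeres, stood at 83.1, 106 and 130 FPKM in the WT CLPs and at 58.1, 60.6 and 56.2 FPKM in the KO CLPs. It fell by 0.83 on the log2 scale (SE 0.15, limma adjusted p = 0.00884). The proliferation antigen Mki67, which coats mitotic chromosomes, stood at 92.6, 72.8 and 87.7 FPKM in WT and at 56.0, 50.3 and 65.6 FPKM in KO CLPs, and fell by 0.55 (limma adjusted p = 0.0275). The spindle assembly factor Tpx2 fell by 0.45, the kinetochore protein Cenpf fell by 0.59 and the checkpoint kinase-like protein Bub1b fell by 0.48 (limma adjusted p = 0.0200, 0.0261 and 0.0336).

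The members that did not pass included motors and the checkpoint kinase Bub1. Kif20a, a kinesin of cytokinesis, and the kinetochore motor Cenpe had estimates of -0.48 and -0.43 (limma adjusted p = 0.0549 and 0.0557, and 0.0239 and 0.0232 with the block). The spindle motor Kif11 and topoisomerase II alpha (Top2a), which untangles sister chromatids, had estimates of -0.25 and -0.27 (limma adjusted p = 0.291 and 0.180). Bub1 had the highest estimate of the list, -0.04, with 16.3, 12.8 and 16.4 FPKM in WT and 13.5, 15.6 and 14.9 FPKM in KO CLPs. Its WT and KO libraries overlapped.

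Fewer S-phase genes of the same CLPs passed the test. The S-phase mean was 5.77, 5.93 and 6.01 in WT and 5.76, 5.88 and 5.69 in KO CLPs, and the groups overlapped. Of the 23 members, 3 fell and 0 rose, with a median log2 fold change of -0.15, and 4 fell with the block, where 8.92% and 12.5% of all tested genes fell. The difference between the mitotic and the S-phase mean of a library, which sets the phases against each other within the same RNA, was -0.24, -0.27 and -0.15 in the WT CLPs and -0.66, -0.69 and -0.50 in the KO CLPs, again without overlap. The number of S-phase members that passed was 8 without WT 1, of which 7 were lower, 2 without KO 1 or KO 2, and 1 without WT 2, WT 3 or KO 3.

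The S-phase members that fell were regulators of S-phase entry and 1 enzyme of nucleotide synthesis. Cyclin E1 (Ccne1), which activates CDK2 at the G1/S transition, stood at 12.5, 15.3 and 15.3 FPKM in WT and at 9.11, 10.3 and 8.52 FPKM in KO CLPs, a log2 fold change of -0.57 (SE 0.13, limma adjusted p = 0.0183). The ribonucleotide reductase subunit Rrm2 stood at 92.2, 94.3 and 104 FPKM in WT and at 58.9, 73.0 and 65.5 FPKM in KO CLPs, and fell by 0.55 (limma adjusted p = 0.0120). The transcription factor E2f1 fell by 0.41 (limma adjusted p = 0.0289). The groups did not overlap for these genes. Cdc6, which loads the MCM helicase, had an estimate of -0.42 (limma adjusted p = 0.0781, and 0.0370 with the block).

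No subunit of the replication machinery passed. The 6 subunits of the MCM helicase, Mcm2, Mcm3, Mcm4, Mcm5, Mcm6 and Mcm7, had estimates between -0.17 (Mcm5) and 0.31 (Mcm4). Mcm4 stood at 77.2, 63.9 and 69.4 FPKM in WT and at 90.1, 87.5 and 83.0 FPKM in KO CLPs, the highest S-phase estimate (limma adjusted p = 0.0810). Mcm4, Mcm6 and the polymerase alpha subunit Pola1 were higher in KO without overlap, 3 of 23 members where 15.3% of all genes were. Origin firing and loading factors (Mcm10, Cdc45, Gins2, Cdt1) lay between -0.38 and 0.05, and primase (Prim1) lay at 0.15. The clamp Pcna, its loader subunit Rfc3, the flap endonuclease Fen1 and DNA ligase Lig1, which join lagging strand fragments, lay between -0.29 and -0.15. Thymidylate synthase (Tyms) lay at -0.22, the large ribonucleotide reductase subunit Rrm1 at 0.00 and cyclin E2 (Ccne2) at 0.09.

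**Figure D3:**
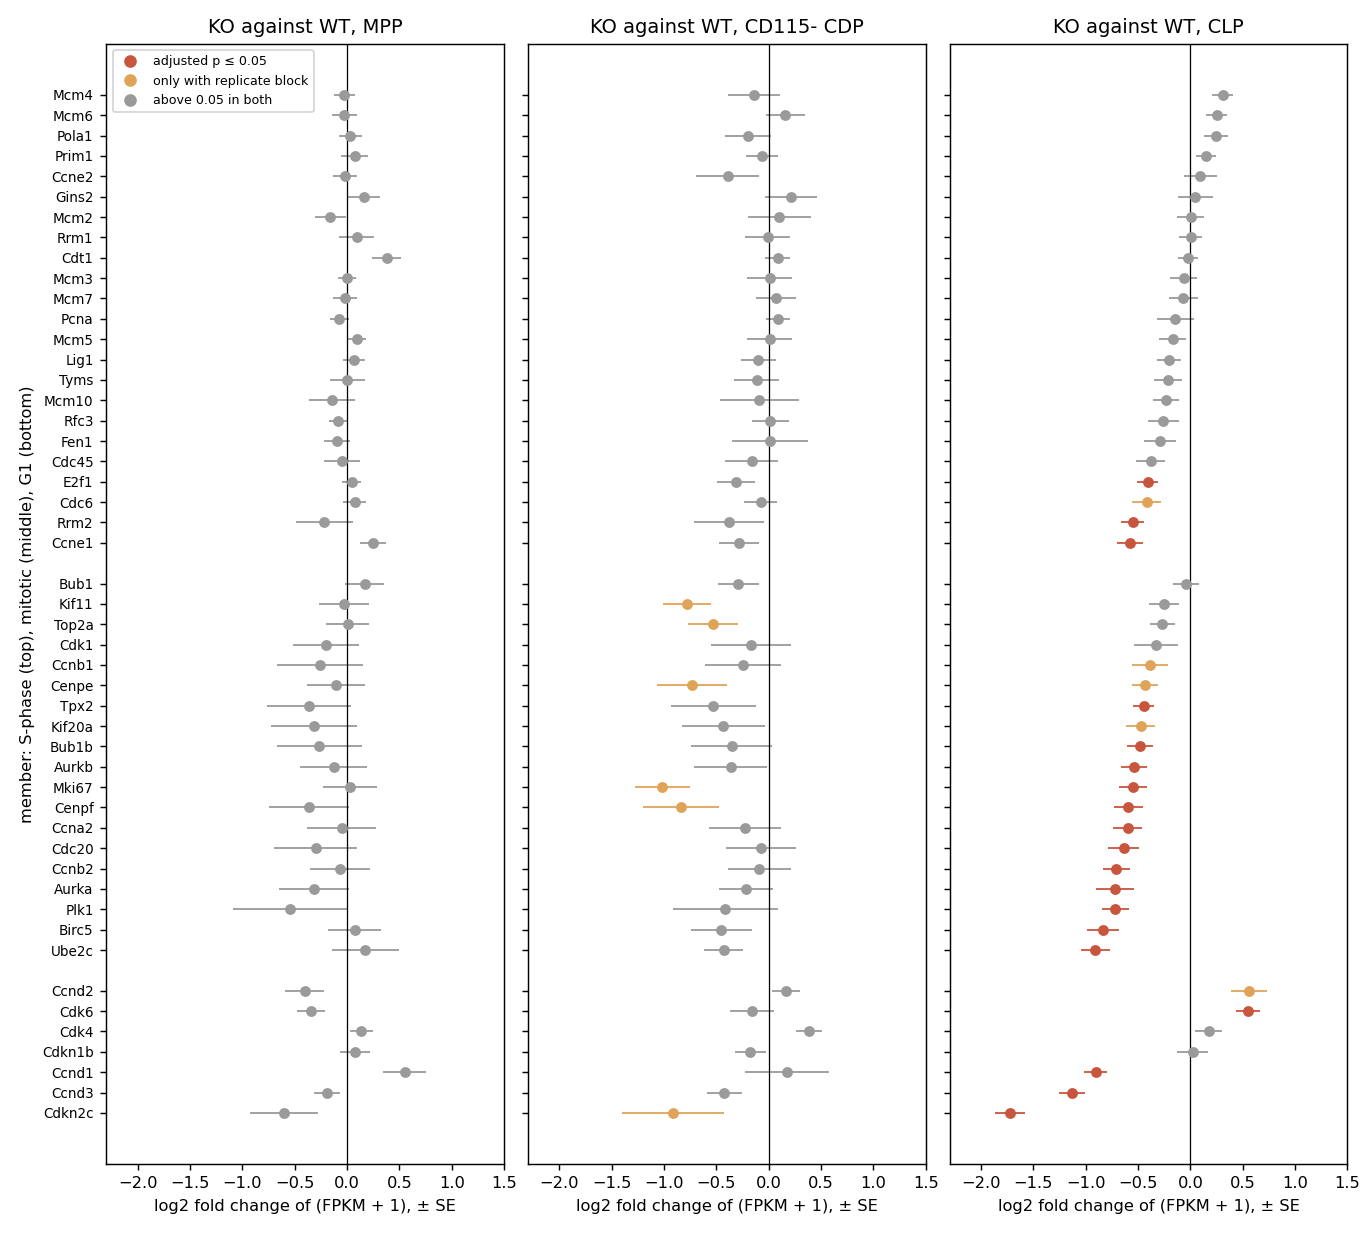
Log2 fold change of (FPKM + 1), KO against WT, with its standard error for the 49 members in MPPs, CD115- CDPs and CLPs (3 against 3 libraries each), ordered within each list by the CLP estimate; red marks adjusted p at most 0.05, orange marks members that passed only with the replicate block. All 19 mitotic estimates lie below 0 in CLPs and in CD115- CDPs, and in CLPs 12 of them pass.

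G1 genes changed in opposite directions in KO CLPs. Of the 7, 3 fell and 1 rose, where 8.92% and 5.41% of all tested genes did. The INK4 inhibitor Cdkn2c (p18), which blocks CDK4 and CDK6, had the lowest estimate of all 49 members. It stood at 35.3, 44.0 and 46.4 FPKM in the WT CLPs and at 11.6, 14.01 and 10.4 FPKM in the KO CLPs, a log2 fold change of -1.72 (SE 0.14, limma adjusted p = 0.000134). Cyclin D3 (Ccnd3), the D-type cyclin of highest level in all 3 WT populations, stood at 355, 453 and 438 FPKM in WT and at 179, 203 and 183 FPKM in KO CLPs, a log2 fold change of -1.13 (SE 0.12, limma adjusted p = 0.000614). Cyclin D1 (Ccnd1) stood at 41.3, 45.5 and 36.8 FPKM in WT and at 22.9, 19.6 and 22 FPKM in KO CLPs, and fell by 0.91 (limma adjusted p = 0.00119). For each of these genes all KO libraries lay well below all WT libraries.

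The kinase Cdk6 rose in KO CLPs, from 44.3, 38.0 and 35.98 FPKM to 59.7, 52.7 and 61.6 FPKM, a log2 fold change of 0.55 (SE 0.11, limma adjusted p = 0.0142). Cyclin D2 (Ccnd2) stood at 42.3, 31.98 and 38.1 FPKM in WT and at 71.7, 47.2 and 50.4 FPKM in KO CLPs. Its groups did not overlap, and its estimate of 0.56 passed with the block and not without it (limma adjusted p = 0.00780 and 0.0638). Cdk4, which like Cdk6 partners D-type cyclins, had an estimate of 0.18 and the inhibitor Cdkn1b (p27) one of 0.02 (limma adjusted p = 0.400 and 0.942). The calls on Cdkn2c, Ccnd3 and Ccnd1 held with any of the 6 libraries left out, with an adjusted p of at most 0.00783. That of Cdk6 reached an adjusted p of 0.0631 when a library was left out.

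**Figure D4:**
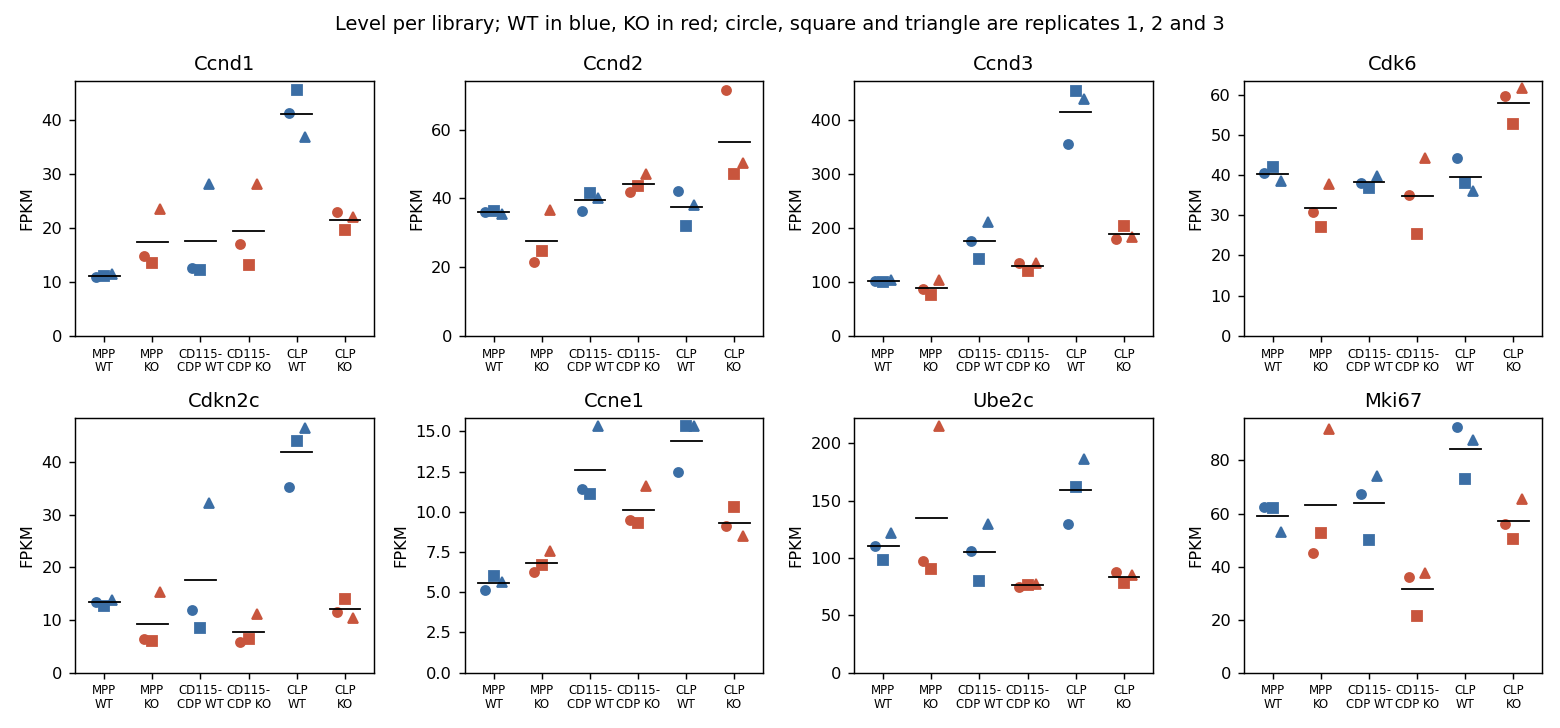
FPKM per library of the D-type cyclins Ccnd1, Ccnd2 and Ccnd3, of Cdk6 and Cdkn2c, and of Ccne1, Ube2c and Mki67, on linear axes from 0; WT libraries are blue, KO libraries red, marker shapes give the replicate number and lines the mean of 3 libraries. Ccnd3 and Cdkn2c are highest in WT CLPs (355 to 453 and 35.3 to 46.4 FPKM), and KO CLPs lie below all WT CLPs (179 to 203 and 10.4 to 14.01 FPKM).

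The further genes of the same phases, which are no members, were counted in the same way in KO CLPs. Of 53 tested mitotic genes outside the members, 25 fell and 0 rose (36 with the block), and all 53 estimates were below 0, with a median of -0.45. They include Foxm1, the transcription factor of the G2 genes, which fell by 0.95 (limma adjusted p = 0.000608), and the cytokinesis regulator Racgap1, which fell by 1.12. Of 46 S-phase genes outside the members, 3 fell and 1 rose, with a median of 0.01, where 8.92% of all genes fell and 5.41% rose. Of 20 tested G1 and cell cycle exit genes, 4 fell and 1 rose; the INK4 inhibitor Cdkn2d fell by 1.80 and E2f2, E2f7 and E2f8 fell by 0.83, 0.89 and 0.78.

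Markers of other cells moved with the genotype in CLPs. All 9 tested DC markers of a list of 10 fell, with a summed level of 1169 to 1235 FPKM in WT and 200 to 237 FPKM in KO CLPs, and none was at 0 in all libraries of a group. The summed level of 10 granulocyte markers was 430 to 998 FPKM in WT and 242 to 416 FPKM in KO CLPs. None of these 10 passed without the block, while some passed with it, and the estimates of Mpo (0.25) and Ctsg (0.07) were above 0. Erythroid markers summed to 54.2 to 73.7 FPKM in WT and 26.8 to 40.7 FPKM in KO CLPs. Of the 9 B-lineage markers, 2 rose and 1 fell, with summed levels of 409 to 907 FPKM in WT and 358 to 655 FPKM in KO CLPs. Il7r, which encodes CD127, the receptor used to gate CLPs, stood at 32.6 to 63.0 FPKM in WT and 37.6 to 43.0 FPKM in KO CLPs. Of the other genes of the gates, Kit (CD117) rose by 0.60 and Cd34 rose by 0.58 on the log2 scale, Csf1r fell by 1.65 (limma adjusted p = 0.0124, 0.00611 and 0.00179), and Flt3 and Ly6a (Sca-1) did not pass. The part of such cells and of these gate genes in the mitotic and G1 differences was not tested.

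In CD115- CDPs the mitotic members had estimates in the same direction and varied much more between replicates. The mitotic mean was 4.95, 4.42 and 5.48 in the WT libraries and 4.40, 4.25 and 4.91 in the KO libraries, so the groups overlapped, but at each replicate number the KO library was lower. No member passed the test without the block, where 0.106% of all 12229 tested genes did, and 4 members had an unadjusted p under 0.05. All 19 mitotic estimates were below 0, with a median of -0.42 where that of all tested genes was -0.07. The groups did not overlap for 3 of them, Mki67, Kif11 and Ube2c, where 10.6% of all genes were lower without overlap. Same-numbered WT and KO libraries deviated together in this population, and with the replicate number as a block 5 mitotic members fell, where 5.56% of all genes fell.

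Mki67 had the lowest mitotic estimate in CD115- CDPs, with 67.3, 50.1 and 74.1 FPKM in WT and 35.9, 21.3 and 37.4 FPKM in KO libraries. Its log2 fold change was -1.02 (SE 0.26, limma adjusted p = 0.332, and 0.00780 with the block). With the block Kif11 (-0.78), Cenpe (-0.73), Cenpf (-0.84) and Top2a (-0.53) also fell (limma adjusted p = 0.0189, 0.0238, 0.0223 and 0.0447). Cdc20 had the highest mitotic estimate, -0.07, with 42.6, 26.8 and 64.0 FPKM in WT and 34.8, 34.3 and 52.4 FPKM in KO libraries. Without WT 3, 12 of the 19 mitotic estimates were below 0 and their median was -0.10, while the S-phase median turned from -0.06 to 0.09. Without KO 3 the mitotic median was -0.62. With replicate 3 of both genotypes left out, an alternative chosen after seeing the data, 18 of the 19 mitotic estimates were below 0 with a median of -0.29, the S-phase median was -0.045, and no mitotic member passed without the block and 4 with it, where 3.15% of all genes fell.

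S-phase genes of the CD115- CDPs differed little between genotypes. Their estimates had a median of -0.06 and lay between -0.39 for Ccne2 and 0.21 for Gins2, a subunit of the replicative helicase. Ccne2 stood at 4.95, 5.39 and 9.75 FPKM in WT and at 4.36, 3.61 and 6.35 FPKM in KO libraries. Gins2 stood at 39.4, 30.1 and 53.8 FPKM in WT and at 41.8, 41.8 and 57.4 FPKM in KO libraries. No S-phase member passed with the block. The difference of the mitotic and the S-phase mean was -0.69, -1.005 and -0.53 in WT and -1.08, -1.23 and -1.01 in KO libraries, and all KO libraries lay below all WT libraries, by a narrow margin between KO 3 and WT 2.

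Among the G1 members of the CD115- CDPs, Cdkn2c had the lowest estimate, with 11.98, 8.51 and 32.2 FPKM in WT and 5.90, 6.36 and 11.1 FPKM in KO libraries. It fell by 0.91 on the log2 scale with the block (limma adjusted p = 0.0464, and 0.566 without it). Cdk4 had the highest estimate, 0.38, with 359, 315 and 365 FPKM in WT and 402, 466 and 490 FPKM in KO libraries (limma adjusted p = 0.404, and 0.0658 with the block). Its groups did not overlap. Ccnd3 stood at 177, 142 and 211 FPKM in WT and at 134, 120 and 135 FPKM in KO libraries, also without overlap (log2 fold change -0.42, limma adjusted p = 0.463, and 0.0571 with the block). The estimates of Ccnd1 (0.17), Ccnd2 (0.17), Cdk6 (-0.16) and Cdkn1b (-0.18) passed in neither fit. DC markers moved with the genotype here too, with a summed level of 423 to 622 FPKM in WT and 193 to 305 FPKM in KO CD115- CDPs, and their part was not tested.

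In MPPs the KO libraries split. The mitotic mean was 5.25, 5.20 and 5.33 in the WT libraries, 4.76 and 4.65 in KO 1 and KO 2, and 5.92 in KO 3, so that KO libraries lay on either side of the WT range. No member passed the test, where 3.84% of all 12372 tested genes did, and 3 members had an unadjusted p under 0.05. No mitotic member was lower without overlap, where 23.3% of all genes were. Plk1 shows the split, with 33.1, 30.6 and 35.4 FPKM in WT and 14.8, 12.1 and 60.3 FPKM in KO MPPs (log2 fold change -0.54, SE 0.55, limma adjusted p = 0.533). Ube2c, the mitotic member with the highest estimate (0.17), stood at 111, 98.2 and 122 FPKM in WT and at 97.6, 90.7 and 215 FPKM in KO MPPs.

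Left out of the fit, KO 3 changed these counts more than any other library. Without it 16 of the 19 mitotic members fell, with a median log2 fold change of -0.52, where 38.8% of all tested genes fell. Of the S-phase members 5 then fell and 1 rose, with a median of -0.09, and of the G1 members 4 fell and 1 rose. With any other library left out, no S-phase, mitotic or G1 member passed, and the mitotic median was 0.03 without KO 1 and 0.08 without KO 2. The direction of the mitotic genes in KO MPPs therefore differed between the KO libraries and is not settled by these 3.

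The S-phase mean was 5.55, 5.54 and 5.605 in WT and 5.50, 5.46 and 5.77 in KO MPPs. The highest S-phase estimate was that of the licensing factor Cdt1, with 56.9, 53.8 and 53.3 FPKM in WT and 73.8, 84.2 and 58.6 FPKM in KO MPPs, above WT in every KO library (log2 fold change 0.38, limma adjusted p = 0.167). The lowest was that of Rrm2, with 45.2, 41.6 and 46.4 FPKM in WT and 33.3, 27.3 and 60.3 FPKM in KO MPPs (log2 fold change -0.22, limma adjusted p = 0.614). Rrm2 followed the split of the mitotic genes and Cdt1 did not. Ccne1 stood at 5.15, 6.03 and 5.61 FPKM in WT and at 6.25, 6.71 and 7.56 FPKM in KO MPPs, also higher in every KO library (log2 fold change 0.25, limma adjusted p = 0.269).

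Among the G1 members of MPPs, Ccnd1 had the highest estimate, with 10.8, 11.2 and 11.46 FPKM in WT and 14.8, 13.6 and 23.6 FPKM in KO libraries (log2 fold change 0.55, limma adjusted p = 0.172). Cdk6 stood at 40.6, 42.1 and 38.5 FPKM in WT and at 30.8, 27.1 and 37.7 FPKM in KO libraries (log2 fold change -0.34, limma adjusted p = 0.183). Neither overlapped between the genotypes, and each lay on the opposite side from its difference in CLPs. Cdkn2c stood at 13.4, 12.7 and 13.8 FPKM in WT and at 6.37, 5.97 and 15.3 FPKM in KO MPPs (log2 fold change -0.60, limma adjusted p = 0.286), with the same split as the mitotic genes. The estimates of Ccnd2 (-0.40), Ccnd3 (-0.19), Cdk4 (0.14) and Cdkn1b (0.07) did not pass. Erythroid markers moved with the genotype in MPPs, with a summed level of 547 to 575 FPKM for the 12 markers in WT and 136 to 189 FPKM in KO, 11 of 12 lower. Immediate early genes did so too, with a summed level of 11406 to 12586 FPKM in WT and 5021 to 5639 FPKM in KO MPPs and 8 of 12 lower. Not all went this way, as the estimates of Nr4a1 (0.30), Fosl2 (1.08) and Atf3 (0.08) were above 0, without passing. Granulocyte markers summed to 3500 to 3620 FPKM in WT and 1579 to 2609 FPKM in KO MPPs. B-lineage markers summed to 61.5 to 67.3 FPKM in WT and 22.8 to 46.1 FPKM in KO MPPs, though the estimate of Ebf1 (0.21) was above 0. Of the gate genes, Kit, Ly6a and Csf1r fell by 0.94, 0.73 and 1.59 on the log2 scale (limma adjusted p = 0.0434, 0.0425 and 0.00253). Cd34, Flt3 and Il7r did not pass. The part of all these genes in the values of the members was not tested.

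A test of whether the KO effect differed between the 3 populations found 1 member, Ccnd3 (limma F test over 18 libraries, adjusted p = 0.0361), where 2.45% of all 12421 genes passed. The call was lost with a pseudocount of 0.1 and with 11 of the 18 libraries left out in turn, namely any WT MPP library, KO 1 of the MPPs, WT 1 or KO 1 of the CD115- CDPs, WT 2 or WT 3 of the CLPs, or any KO CLP library. Its log2 fold changes were -1.13 in CLPs, -0.42 in CD115- CDPs and -0.19 in MPPs. With the replicate number as a block Ccne1, Ccnd1, Ccnd2 and Cdk6 passed as well (adjusted p = 0.0222, 0.00619, 0.0270 and 0.0397), where 8.67% of all genes did. No mitotic member passed in either fit, so for the members a difference of the mitotic change between the populations was not shown. Of the 53 tested mitotic genes outside the members, 3 passed without the block and 9 with it, to be read beside the same shares of all genes.

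Across the WT populations Pcna was the highest of the 49 in each, at 379 ± 25.0 FPKM (SD, n = 3) in MPPs, 363 ± 27.7 FPKM in CD115- CDPs and 455 ± 101 FPKM in CLPs. Cdk4 stood at 370 ± 30.5, 346 ± 27.5 and 347 ± 44.1 FPKM (SD, n = 3). Ccnd3 rose to the second place in CLPs, with 415 ± 53.0 FPKM (SD, n = 3) against 101 ± 2.003 in MPPs and 176 ± 34.4 in CD115- CDPs. Mcm6 and Mcm7 followed at 204 to 245 FPKM. Ccne2, Cenpf, Cenpe and Ccne1 held the 4 lowest places in each population. Ccne2 stood at 6.31 ± 1.36 FPKM (SD, n = 3) in CLPs, 6.70 ± 2.65 FPKM in CD115- CDPs and 4.99 ± 0.14 FPKM in MPPs. Of the 48 pairs of neighbours in this order, 27 (MPPs), 45 (CD115- CDPs) and 39 (CLPs) differed by less than the larger of their SDs.

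The mitotic members had higher estimates in WT CLPs than in WT CD115- CDPs, but few of them passed the test. All 19 estimates were above 0, with a median log2 fold change of 0.82 where that of all genes was 0.08, and 3 members, Cdc20, Bub1b and Cenpf, rose past the test, where 8.16% of all 12528 genes were higher. The groups did not overlap for 5 members, all higher in CLPs, where 19.9% of all genes were. Bub1b, the mitotic member with the highest estimate, stood at 52.8, 65.5 and 71.8 FPKM in CLPs and at 27.9, 17.8 and 44.8 FPKM in CD115- CDPs (log2 fold change 1.13, SE 0.28, limma adjusted p = 0.0361). Bub1, with the lowest (0.23), stood at 16.3, 12.8 and 16.4 FPKM in CLPs and at 13.7, 10.3 and 14.6 FPKM in CD115- CDPs. These counts moved with single libraries. Without their WT 3, which had the highest level of all 19 in that group, 18 mitotic members rose, where 27.1% of all genes were higher, while 0 passed without any 1 of WT 1 or WT 2 of the CD115- CDPs, the MPP libraries, or WT 2 or WT 3 of the CLPs, and 1 passed without WT 1 of the CLPs.

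No S-phase member passed between WT CLPs and WT CD115- CDPs, with 5 at an unadjusted p under 0.05. Their median log2 fold change was 0.18. Rrm2 had the highest estimate (0.65, limma adjusted p = 0.113), with 92.2, 94.3 and 104 FPKM in CLPs and 56.3, 42.5 and 95.2 FPKM in CD115- CDPs. Cdt1 had the lowest (-0.29, limma adjusted p = 0.0722), with 55.1, 61.2 and 57.2 FPKM in CLPs and 68.2, 68.7 and 75.9 FPKM in CD115- CDPs, and it was lower in every CLP library.

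WT CLPs were higher in 4 of the 7 G1 members. Ccnd1, Ccnd3, Cdkn1b and Cdkn2c rose in WT CLPs against WT CD115- CDPs and against WT MPPs, without overlap of the groups in either comparison. Of all tested genes, 8.16% rose against CD115- CDPs and 10.7% against MPPs. Without overlap, 19.9% and 24.2% of all genes were higher. Against CD115- CDPs the log2 fold changes of these 4 members were 1.28, 1.24, 0.46 and 1.41 (limma adjusted p = 0.0236, 0.00255, 0.0362 and 0.0488). Cdkn1b did not pass with the block (limma adjusted p = 0.0543). Against MPPs they were 1.79, 2.02, 0.64 and 1.57 (limma adjusted p = 0.00176, 4.1e-05, 0.00368 and 0.0171). Ccnd1 stood at 11.2 ± 0.32 FPKM (SD, n = 3) in MPPs, at 17.7 ± 9.12 FPKM in CD115- CDPs and at 41.2 ± 4.34 FPKM in CLPs. Cdkn2c stood at 13.3 ± 0.52, 17.6 ± 12.8 and 41.9 ± 5.85 FPKM, and Cdkn1b at 27.4 ± 2.01, 31.3 ± 2.99 and 43.4 ± 3.36 FPKM.

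The other G1 members passed in no WT comparison. Ccnd2 stood at 35.96 ± 0.43, 39.4 ± 2.68 and 37.5 ± 5.18 FPKM (SD, n = 3) in MPPs, CD115- CDPs and CLPs, and Cdk6 at 40.4 ± 1.83, 38.2 ± 1.53 and 39.4 ± 4.33 FPKM. Ccnd2 had the lowest G1 estimate of CLPs against CD115- CDPs (-0.08), and Cdk4 the lowest of CLPs against MPPs (-0.10) and of CD115- CDPs against MPPs (-0.10). None of these passed.

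Against WT MPPs, WT CLPs were higher in 5 S-phase members, where 10.7% of all genes were higher. These were Ccne1, Rrm2, Cdc6, Cdc45 and E2f1, with a median of 0.27 over the 23 where that of all genes was -0.05. Ccne1 stood at 12.5, 15.3 and 15.3 FPKM in CLPs and at 5.15, 6.03 and 5.61 FPKM in MPPs, a log2 fold change of 1.22 (SE 0.15, limma adjusted p = 0.000618). Pola1 had the lowest estimate (-0.29, limma adjusted p = 0.182), with 19.9, 15.9 and 18.6 FPKM in CLPs and 22.9, 23.1 and 20.8 FPKM in MPPs. The groups did not overlap for 12 of the 23 in the higher direction, where 24.2% of all genes were higher without overlap. Without WT 3 of the CD115- CDPs, which enter the fit only through the shared spread, 9 S-phase and 8 mitotic members passed, where 17.5% of all genes were higher.

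Of the mitotic members 1 of 19, Mki67, was higher in WT CLPs than in WT MPPs (limma adjusted p = 0.0497), where 10.7% of all genes were. All 19 estimates were above 0, with a median log2 fold change of 0.42. It stood at 92.6, 72.8 and 87.7 FPKM in CLPs and at 62.4, 62.2 and 52.8 FPKM in MPPs. The groups did not overlap for 13 of the 19, all higher in CLPs, where 24.2% of all genes were. Bub1b had the highest estimate here too (0.67) and Bub1 the lowest (0.10), neither past the test. No mitotic member passed without any 1 of the MPP libraries, of WT 2 or WT 3 of the CLPs, or without WT 1 of the CD115- CDPs, and 4 passed without their WT 2.

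WT CD115- CDPs against WT MPPs gave an S-phase median above 0 and a mitotic median below 0. The S-phase members Ccne1, E2f1 and Cdt1 rose, where 5.14% of all genes were higher, and the S-phase median was 0.09. Ccne1 had the highest estimate, with 11.4, 11.1 and 15.3 FPKM in CD115- CDPs and 5.15, 6.03 and 5.61 FPKM in MPPs (log2 fold change 1.03, SE 0.15, limma adjusted p = 0.00175), and Pola1 the lowest (-0.24), with 19.2, 15.5 and 21.7 FPKM against 22.9, 23.1 and 20.8 FPKM. E2f1 rose by 0.54 and Cdt1 by 0.37 (limma adjusted p = 0.0156 and 0.0207). Ccnd3 was the G1 member that rose (0.78, limma adjusted p = 0.00736). The same members passed with the block. Without WT 2 of the CD115- CDPs 4 S-phase members rose, without their WT 1 or any MPP library 1 did, and without their WT 3 the numbers were 3 higher and 3 lower.

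Of the mitotic members none passed between WT CD115- CDPs and WT MPPs, with 1 at an unadjusted p under 0.05. The median was -0.26, where that of all genes was -0.10, and 17 of 19 estimates were below 0. Cdk1 had the lowest, -0.66, with 15.9, 13.2 and 31.6 FPKM in CD115- CDPs and 27.4, 28.4 and 35.9 FPKM in MPPs, and Birc5 the highest, 0.12, with 68.2, 51.7 and 105 FPKM against 64.1, 64.1 and 70.0 FPKM. Without WT 3 of the CD115- CDPs 11 mitotic members fell, where 34.5% of all genes were lower, and all 19 estimates were below 0. With it the difference was not settled.

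**Figure D5:**
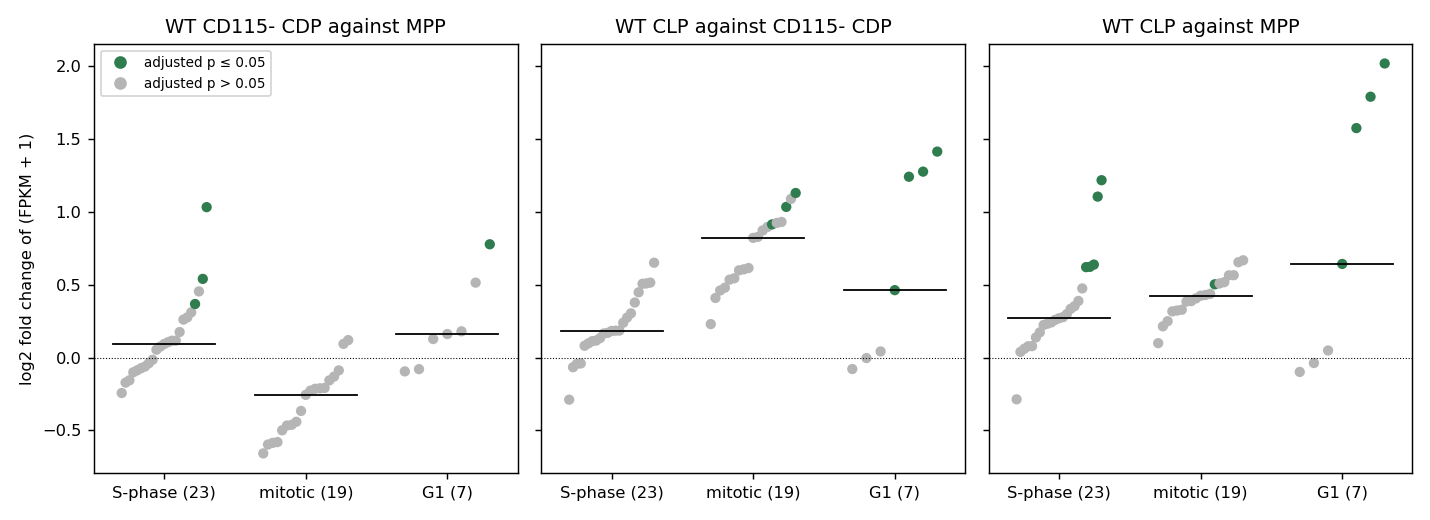
Log2 fold change of (FPKM + 1) between WT populations for the S-phase, mitotic and G1 members, each dot a gene, sorted within its list; green dots have an adjusted p at most 0.05 and lines are list medians. The mitotic median is -0.26 for CD115- CDPs against MPPs, 0.82 for CLPs against CD115- CDPs and 0.42 for CLPs against MPPs.

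Markers of other lineages also differed between the WT populations. Erythroid markers summed to 547 to 575 FPKM in WT MPPs, 18.4 to 55.7 FPKM in WT CD115- CDPs and 54.2 to 73.7 FPKM in WT CLPs. DC markers summed to 125 to 146 FPKM in WT MPPs, 423 to 622 FPKM in WT CD115- CDPs and 1169 to 1235 FPKM in WT CLPs. B-lineage markers summed to 409 to 907 FPKM in WT CLPs, 60.9 to 197 FPKM in WT CD115- CDPs and 61.5 to 67.3 FPKM in WT MPPs. Granulocyte markers summed to 430 to 998 FPKM in WT CLPs and 3500 to 3620 FPKM in WT MPPs. In WT CD115- CDPs they summed to 696 to 4513 FPKM, the highest value being that of WT 3. Immediate early genes summed to 11406 to 12586 FPKM in WT MPPs, 4587 to 7027 FPKM in WT CD115- CDPs and 4786 to 9310 FPKM in WT CLPs. Their part in the differences of the members was not tested.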

How the data were processed

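Poly-A RNA of 18 sorted bone marrow progenitor samples (3 libraries per genotype and population, stated to be biological repeats) was sequenced. The authors deposited FPKM per gene, 1 table per population, with replicates not pooled. The submitters' processing notes name HISAT2 2.0.4, Bowtie2 2.2.5, RSEM 1.2.12 and build mm10. FPKM are relative values and counts were not used here. The tables list 19710 genes (MPP, CD115- CDP) and 18378 genes (CLP), and each was normalized by library.

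Genes whose mean reached 0.5 FPKM were tested on log2(FPKM + 1), a scale that understates the change of low genes, with limma 3.58.1 (R 4.3.3, trend and Benjamini-Hochberg adjustment over all tested genes, two-sided). KO and WT were compared within a population (6 libraries), WT populations in 1 fit of the 9 WT libraries, and the difference of the KO effect between populations in 1 fit of 18. WT levels set across tables rest on the authors' separate tables. The p-values measure the spread between these samples, some of which may be technical. The fit was tested on simulated data. Python 3.11.15, pandas 2.3.3, numpy 2.4.6 and matplotlib 3.10.9 were used for summaries and plots.

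The members and lists were chosen with earlier results of these data known. In each comparison the member of each list with the highest and the lowest estimate was named with its value in every library, and all G1 members were named. Other members given with values, Foxm1, Racgap1 and the other genes outside the members were chosen after their values were seen.

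Replicate numbers pair the samples where same-numbered libraries deviated together from their group means. In CD115- CDPs the correlations of their deviations were 0.44, 0.67 and 0.79, in CLPs 0.40, 0.33 and 0.13, and between WT CD115- CDPs and WT MPPs 0.16, 0.38 and 0.37, so the number was also fitted as a block. In MPPs the correlations were 0.04, 0.48 and 0.47, between WT CLPs and WT MPPs 0.12, -0.17 and 0.17, and between WT CLPs and WT CD115- CDPs 0.17, -0.19 and 0.03. These comparisons were not counted as paired, though in MPPs some values exceeded those of CLPs. Blocked results for them, and for the difference of the KO effect, which includes MPPs, carry this limit.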

Additional observations from a re-analysis of the deposited data

Results flagged for a closer look

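The KO effect on Ccnd3 differed between the populations by the limma test of that difference (adjusted p = 0.0361), with log2 fold changes of -1.13 in CLPs, -0.42 in CD115- CDPs and -0.19 in MPPs. Of the 49 members only Ccnd3 passed, where 2.45% of all 12421 genes did. This call was lost with a pseudocount of 0.1 and with any of 11 of the 18 libraries left out. For 3 other members every KO library lay on one side of all WT libraries in MPPs and on the opposite side in CLPs. The share of all genes with such opposite sides was not counted, so whether 3 of 49 members exceeds it is not known. Of all genes, 23.3% were lower without overlap in KO MPPs. In KO CLPs 18.6% were lower and 15.3% higher without overlap. Ccne1 had a log2 fold change of 0.25 in MPPs and -0.57 in CLPs. Ccnd1 had 0.55 in MPPs and -0.91 in CLPs. Cdk6 had -0.34 in MPPs and 0.55 in CLPs. The test of the difference over the 3 populations did not pass for these genes without the replicate block (adjusted p = 0.0905 for Ccne1, 0.146 for Ccnd1 and 0.0948 for Cdk6, limma) and the MPP and CLP effects alone were not set against each other by a test. Groups of 3 libraries were not tested for single extreme libraries.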

How the results depend on the processing

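Limits were set mainly by the 3 libraries per group, by FPKM without counts and by single libraries. No called value changed sign, but list medians near 0 did. The KO MPP mitotic median (-0.13) was 0.03 and 0.08 without KO 1 or KO 2, and the S-phase medians of KO MPPs, KO CD115- CDPs and WT CD115- CDPs against MPPs took either sign when single libraries were left out (the first also with median ratio scaling or quantile normalization). Left out in turn, single libraries gave in KO against WT 0 to 6 S-phase and 0 to 16 mitotic calls in MPPs, and 1 to 8 and 4 to 14 in CLPs, where the S-phase median ranged from -0.26 to -0.056. For WT CD115- CDPs against MPPs the ranges were 1 to 6 and 0 to 11, for WT CLPs against MPPs 3 to 9 and 0 to 8 with an S-phase median of 0.24 to 0.37, for WT CLPs against CD115- CDPs 0 to 9 and 0 to 18, and for the difference of the KO effect 0 to 4.

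With the replicate number as a block, 5 mitotic members passed in KO CD115- CDPs (4 with replicate 3 of both genotypes left out, chosen after seeing the data), 3 in WT CLPs against MPPs, 5 in WT CLPs against CD115- CDPs, and 5 members for the difference of the KO effect. The block moved no other S-phase or mitotic count by more than 1.5 times. Rescaled to TPM, the S-phase counts were 5 in KO CLPs, 8 in WT CLPs against MPPs (median 0.41) and 3 against CD115- CDPs, and the mitotic counts 3 (median 0.56) and 11 in the same WT comparisons. Median ratio scaling gave 1 S-phase call in WT CLPs against CD115- CDPs and 3 for the difference of the KO effect, and quantile normalization 2 S-phase and 5 mitotic calls in WT CLPs against CD115- CDPs. Without a filter 7 mitotic members passed in KO CLPs and 0 in WT CLPs against either population. The single mitotic call of WT CLPs against MPPs was lost (0) with a pseudocount of 0.1, a mean of at least 5 FPKM, no trend, or all 18 libraries in the fit, which also gave 0 mitotic calls against CD115- CDPs. With a pseudocount of 0.1 the difference of the KO effect had 0 calls. Requiring a log2 fold change of 1 left 0 S-phase and 0 mitotic calls in KO CLPs, 1 S-phase call in WT CD115- CDPs against MPPs, and 2 S-phase and 0 mitotic calls in WT CLPs against MPPs. The cause of these differences was not tested.

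Scaling moved the median of all genes by 0.10 in KO MPPs and 0.12 in WT CD115- CDPs against MPPs (median ratio), by -0.12 in KO CD115- CDPs and by 0.11 in WT CLPs against MPPs (TPM). Relative to all genes, the mitotic median stayed between -0.37 and -0.34 in KO CD115- CDPs and between -0.55 and -0.53 in KO CLPs. The percentage of all calls that were lower went from 91.8 to 76.1 in KO MPPs, 62.3 to 52.5 in KO CLPs and 76.6 to 59.3 in WT CD115- CDPs against MPPs (quantile normalization), and from 57.5 to 43.2 in WT CLPs against MPPs and 25.0 to 13.6 against CD115- CDPs (TPM).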
